A study of Mus musculus with 7 samples.

Results

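The 8 genes described here are those of the MHC class II pathway that the count table lists under the symbols H2-Aa, H2-Ab1, H2-Eb1, H2-DMa, H2-DMb1, H2-DMb2, Cd74 and Ciita. They were chosen by symbol, out of 35976 symbols in the table, and all 8 were found. The samples are lineage-negative cells of mouse fetal liver, the stem and progenitor fraction of the organ that makes most blood at this stage, taken at stage E14.5. The 4 knockout libraries come from C57BL/6 embryos with the genotype Vav1-iCre Brd9fl/fl, and the 3 control libraries from C57BL/6 embryos that are Brd9fl/fl without the recombinase. Both groups carry the CD45.2 form of the blood cell marker CD45 and loxP sites at both Brd9 alleles. Vav1-iCre is a Cre recombinase driven by a promoter active in blood cells, so Brd9, a bromodomain protein of the chromatin remodeller known as non-canonical BAF, is deleted there. The mothers of the matings carried Vav1-iCre and the fathers did not. The recombinase and the loss of Brd9 cannot be told apart in this design. The labels do not say whether a library is 1 embryo or a pool, so the p-values measure only the spread between libraries, which may be partly technical.

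MHC class II molecules present peptides from the endosomal route to CD4 T cells. An alpha and a beta chain (in this region of the mouse genome H2-Aa with H2-Ab1, and an E alpha chain with H2-Eb1) assemble in the endoplasmic reticulum around the invariant chain Cd74, which blocks the groove and steers the complex to endosomes. There H2-DM, a dimer of H2-DMa with a beta chain from H2-DMb1 or H2-DMb2, releases the last piece of the invariant chain and lets peptides bind. Ciita is the transactivator that is recruited to the promoters of these genes by factors bound to their X and Y boxes, and it is known for switching the whole set on in dendritic cells, B cells and macrophages and, after interferon gamma, in other cells. C57BL/6 mice lack a working E alpha gene, so H2-Eb1 has no partner chain in them.

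The promoter stretches below show the X and Y box motifs as a pair in H2-Eb1, H2-DMb1 and H2-DMb2, and only the Y box core in H2-Aa. Those of H2-DMb1 and H2-DMb2 also show how alike these neighbouring genes are. RefSeq windows of 250 bases before to 50 after a transcript start (GRCm38.p6) were matched for 5 of the 8 members, H2-Aa, H2-Eb1, H2-DMa, H2-DMb1 and H2-DMb2. Both strands were searched for ATTGG, the core of the Y box that binds NF-Y, and for ACNGATG, the end of the X box that binds RFX; the letters of these motifs do not overlap. ATTGG stood on the strand of the gene in all 5 of these members, though for H2-DMa only in the second of its pair of windows. Counted per window and on either strand, a wider measure, ATTGG occurs in 37.4% of all 32851 promoter windows and ACNGATG in 9.85%. ACNGATG followed on the same strand by ATTGG with at most 40 bases between them was found in 98 windows, 0.298% of all, and in 3 of the 5 members. These were H2-Eb1 with 22 bases between the motifs, and H2-DMb1 and H2-DMb2 with 23 each. Capitals mark ACNGATG and ATTGG, and each stretch reads 5′ to 3′ on the strand of its gene.
H2-Aa (chr17:34287847-34287918, minus strand): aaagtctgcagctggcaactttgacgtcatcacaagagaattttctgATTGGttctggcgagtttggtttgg
H2-Eb1 (chr17:34305759-34305832, plus strand): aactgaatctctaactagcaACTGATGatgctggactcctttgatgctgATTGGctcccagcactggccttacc
H2-DMb1 (chr17:34153080-34153154, plus strand): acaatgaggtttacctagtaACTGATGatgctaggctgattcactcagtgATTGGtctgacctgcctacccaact
H2-DMb2 (chr17:34145109-34145183, plus strand): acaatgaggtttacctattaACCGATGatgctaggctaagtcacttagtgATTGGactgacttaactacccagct
ATTGG began 48 bases before the transcript start of the H2-Aa window, 59 before that of H2-Eb1, 61 before that of H2-DMb1 and 90 before that of H2-DMb2. The window of H2-DMb2 (from 34144999) lies inside the gene, which begins at 34143229. Both windows of H2-DMa (from 34122582 and 34125268) also lie inside their gene, which begins at 34119693. The stretches of H2-DMb1 and H2-DMb2 were identical at 65 of 75 aligned positions, and those of H2-Eb1 and H2-DMb1 at 52 of 80. In H2-Aa the exact letters ACNGATG were not found upstream of ATTGG on that strand.

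Across the libraries none of the 8 genes passed the test between knockout and control, and all 8 were scarce. In edgeR's quasi-likelihood test over all genes, 0 of the 7 members that passed the filter on low counts rose or fell, against a background of 0.559% of tested genes that did. At an unadjusted p under 0.05 there was 1 member, H2-Eb1, which was lower, where 10.9% of all tested genes reached that level and 6.9% did so as lower. DESeq2 called 0 members, against 2.19% of the genes it gave an adjusted p for, and limma-voom called 0. Ciita did not pass the filter. Its values are given as counts. The knockout mean lay below the control mean for 7 of the 8 members and above it for H2-Ab1. Of the 7 members tested, 6 had a log2 fold change below 0, against 47.6% of all tested genes, and the median was -0.60, against 0.01 over all tested genes. That median was -0.21 without control replicate 2 and -0.27 without knockout replicate 1.

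Brd9 had 8.57, 11.9, 13.2 and 12.2 CPM in knockout replicates 1 to 4, against 30.6, 32.2 and 36.5 CPM in control replicates 1 to 3, so every library lay on the side that its label gives (log2 fold change -1.53, SE 0.15, edgeR adjusted p = 0.0037). Albumin, a hepatocyte product, was at 6576 ± 1633 CPM in the knockouts and 5694 ± 1711 CPM in the controls (SD, n = 4 and 3), so RNA of liver cells was present in the fraction. The depletion target Ly6g stood at most at 0.0975 CPM, while Ptprc, the CD45 gene, averaged 52.9 and 65.2 CPM in knockouts and controls. Kit, a progenitor receptor, averaged 195 and 294 CPM, without overlap between the groups (log2 fold change -0.59, edgeR adjusted p = 0.056, DESeq2 adjusted p = 0.00027). In bulk RNA such as this, fewer cells of a type and less RNA per cell cannot be told apart.

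H2-Ab1, the beta chain of the A molecule (chr17:34263227-34269418, plus strand, GRCm38), was the only member with a higher mean in the knockouts. It had 93, 74, 135 and 93 reads in knockout replicates 1 to 4, which is 5.08, 3.34, 6.39 and 4.53 CPM, against 58, 120 and 62 reads in control replicates 1 to 3, which is 2.67, 4.97 and 2.85 CPM. The groups overlapped, because control replicate 2 stood above knockout replicates 2 and 4. The mean was 4.84 ± 1.27 CPM in the knockouts and 3.5 ± 1.3 CPM in the controls (SD, n = 4 and 3), a log2 fold change of 0.46 (SE 0.29, 95% interval -0.20 to 1.12, edgeR adjusted p = 0.622).

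H2-Aa, its alpha chain partner (chr17:34282744-34287823, minus strand), had a lower mean in the knockouts. It had 3, 10, 13 and 7 reads in knockout replicates 1 to 4 (0.164, 0.452, 0.616 and 0.341 CPM), against 15, 18 and 15 reads in control replicates 1 to 3 (0.691, 0.745 and 0.690 CPM). The groups did not overlap, and the share of all tested genes of which this is true is 11.2%. H2-Aa was the only member with that property. The knockout mean was 55.5% of the control mean and the log2 fold change -0.82 (SE 0.42, 95% interval -1.78 to 0.13, edgeR adjusted p = 0.540), so the difference did not pass. An exact permutation test over the 35 ways of dividing 7 libraries into 4 and 3, two-sided, gave p = 0.0571 on log2 CPM, where the smallest it can give is 0.0286. With 3 reads in knockout replicate 1, the counting interval alone ran from 0.0338 to 0.479 CPM, below the control values. It still overlapped the counting intervals of control replicates 1 to 3, which began at 0.387, 0.442 and 0.386 CPM.

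H2-Eb1, the beta chain without a partner in this strain (chr17:34305867-34316674, plus strand), had the lowest ratio of knockout to control mean among the 8 genes. It had 5, 2, 11 and 7 reads in knockout replicates 1 to 4 (0.273, 0.0903, 0.521 and 0.341 CPM) and 19, 19 and 10 reads in control replicates 1 to 3 (0.876, 0.787 and 0.460 CPM). Knockout replicate 3 lay above control replicate 3, and the other knockouts lay below every control. The knockout mean was 43.3% of the control mean, with a log2 fold change of -1.2 (SE 0.51, 95% interval -2.35 to -0.05, edgeR unadjusted p = 0.0427 and adjusted p = 0.440). H2-Ea-ps, the name under which the table holds the E alpha gene, had no read in any library.

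Cd74, the invariant chain (chr18:60803849-60812652, plus strand), had 9, 21, 51 and 34 reads in knockout replicates 1 to 4 (0.492, 0.948, 2.42 and 1.66 CPM), against 33, 68 and 43 reads in control replicates 1 to 3 (1.52, 2.82 and 1.98 CPM). Knockout replicates 1 and 2 stood below every control, and replicates 3 and 4 within the control range. The log2 fold change was -0.60 (SE 0.47, 95% interval -1.65 to 0.44, edgeR adjusted p = 0.689). It was -0.34 without knockout replicate 1 and -1.02 without knockout replicate 3.

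**Figure D1:**
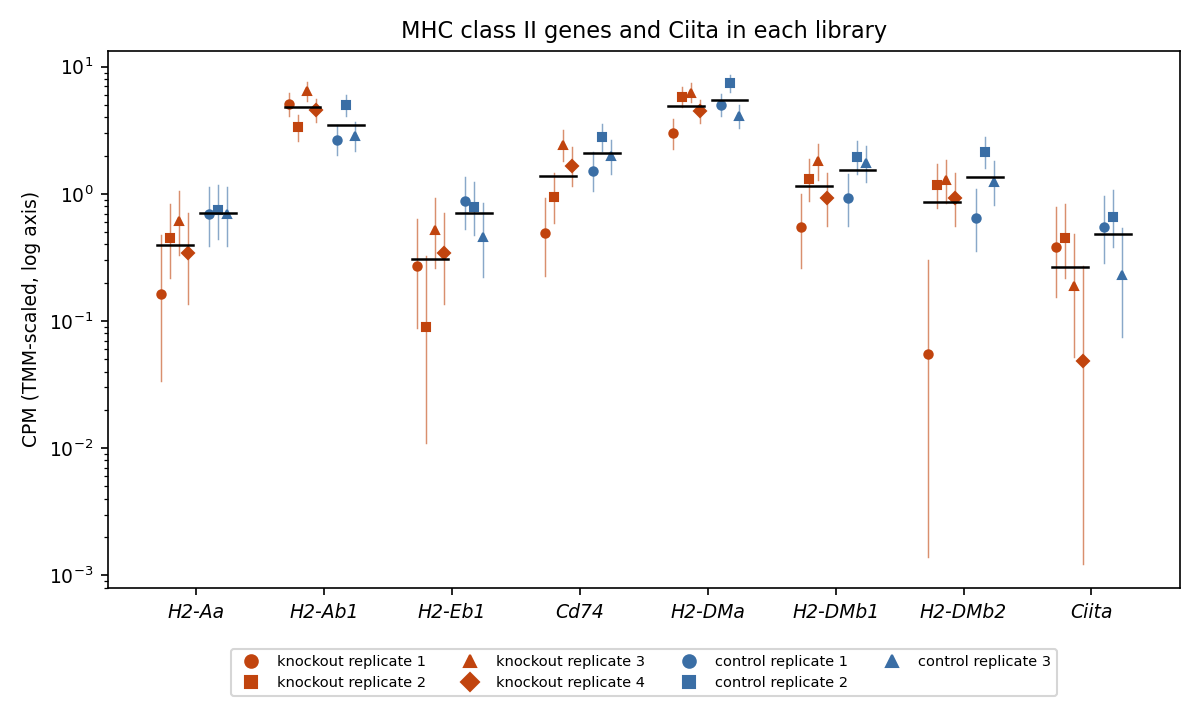
CPM (log axis) of each gene in the 4 knockout libraries (red) and the 3 control libraries (blue), 1 point per library with its exact Poisson 95% interval and a black bar for the group mean. H2-Aa is the only gene whose groups do not overlap, H2-Ab1 the only one with the knockout mean above the control mean, and H2-DMb2 in knockout replicate 1 and Ciita in knockout replicate 4 rest on 1 read each.

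H2-DMa, the alpha chain of the H2-DM dimer (chr17:34119693-34139101, plus strand), had 55, 129, 132 and 92 reads in knockout replicates 1 to 4 (3.0, 5.83, 6.25 and 4.48 CPM) and 109, 179 and 89 reads in control replicates 1 to 3 (5.02, 7.41 and 4.09 CPM). Knockout replicate 1 was the only knockout below every control. The log2 fold change was -0.17 (SE 0.29, 95% interval -0.82 to 0.48, edgeR adjusted p = 0.864), and it was 0.10 without control replicate 2. H2-DMa shares 3094 bases with Brd2 on the other strand, a gene with 6603 to 8156 reads per library, so a count that ignored strand could hold reads of Brd2.

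H2-DMb1, a beta chain of the dimer (chr17:34153191-34160229, plus strand), had 10, 29, 38 and 19 reads in knockout replicates 1 to 4 (0.546, 1.31, 1.80 and 0.926 CPM), against 20, 47 and 38 reads in control replicates 1 to 3 (0.922, 1.95 and 1.75 CPM). Its log2 fold change was -0.42 (SE 0.42, 95% interval -1.37 to 0.53, edgeR adjusted p = 0.760), and the groups overlapped. H2-DMb2, the other beta chain gene (chr17:34143229-34151553, plus strand), had 1, 26, 27 and 19 reads in knockout replicates 1 to 4 (0.0546, 1.17, 1.28 and 0.926 CPM), against 14, 52 and 27 reads in control replicates 1 to 3 (0.645, 2.15 and 1.24 CPM). Its log2 fold change was -0.63 (SE 0.65, 95% interval -2.10 to 0.83, edgeR adjusted p = 0.762), -0.27 without knockout replicate 1 and -0.12 without control replicate 2. The single read in knockout replicate 1, with a counting interval of 0.00138 to 0.304 CPM, was below all other libraries. The longest protein-coding transcripts of H2-DMb1 and H2-DMb2 were identical at 69.2% of aligned positions, and 26.6% of all 50-base stretches of H2-DMb1 occur unchanged in H2-DMb2, so the counting could have split or dropped reads of either.

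Ciita, the transactivator (chr16:10480014-10531064, plus strand), was the scarcest member. It had 7, 10, 4 and 1 reads in knockout replicates 1 to 4 (0.382, 0.452, 0.189 and 0.0487 CPM) and 12, 16 and 5 reads in control replicates 1 to 3 (0.553, 0.662 and 0.230 CPM). The groups overlapped, and the exact permutation test gave p = 0.314 on log2 CPM. With no filter the log2 fold change was -0.84 (SE 0.65, edgeR adjusted p = 0.751). Ciita shares 25888 bases of its span with Dexi on the other strand, which had 125 to 191 reads per library.

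**Figure D2:**
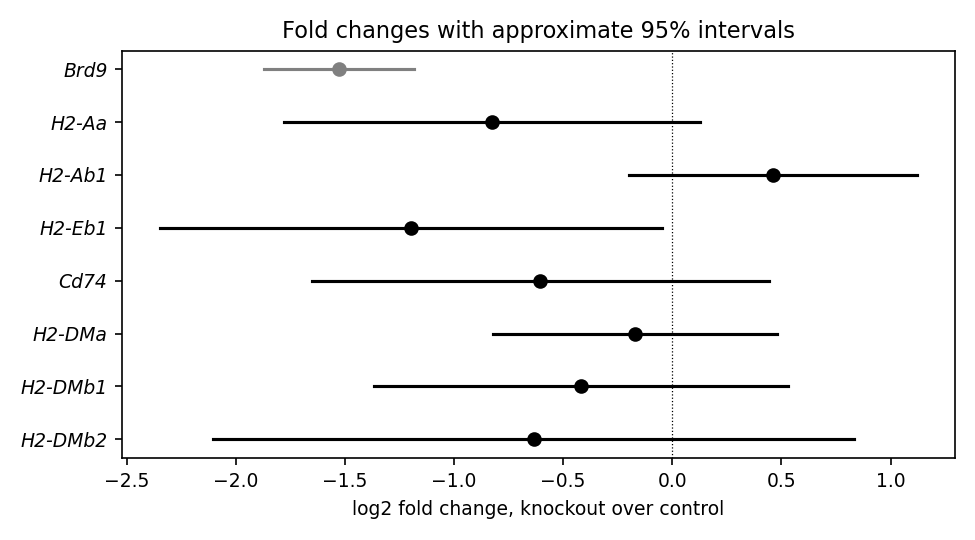
Log2 fold change of knockout over control (horizontal axis) for Brd9 (grey) and the 7 members that passed the filter (black), with 95% t intervals from the edgeR fit. The intervals of 6 members span 0; that of H2-Eb1 runs from -2.35 to -0.05 before any adjustment over genes, and H2-Ab1 is the only member to the right of 0.

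Compared per length of exon, H2-Ab1 stood highest, at 3.99 ± 1.05 CPM per kilobase in the knockouts and 2.89 ± 1.05 CPM per kilobase in the controls (SD, n = 4 and 3). H2-DMa followed at 1.83 ± 0.55 and 2.07 ± 0.64 CPM per kilobase in knockouts and controls, and its control range of 1.53 to 2.78 reached into that of H2-Ab1, 2.21 to 4.10. Among the knockouts these ranges did not overlap, with 1.13 to 2.34 for H2-DMa and 2.76 to 5.28 for H2-Ab1. Cd74 (0.973 ± 0.594 in knockouts and 1.49 ± 0.46 in controls), H2-DMb1 (0.816 ± 0.382 and 1.10 ± 0.39) and H2-DMb2 (0.491 ± 0.318 and 0.771 ± 0.435) came next, and from H2-DMa to H2-DMb2 the ranges of neighbours in this order overlapped in both groups. H2-Aa had 0.349 ± 0.168 CPM per kilobase in the knockouts and 0.628 ± 0.028 in the controls, H2-Eb1 0.184 ± 0.107 and 0.424 ± 0.131, and Ciita 0.0326 ± 0.0223 and 0.0586 ± 0.0273. Among the controls H2-Aa lay above H2-Eb1 and H2-Eb1 above Ciita in every library, since H2-Eb1 was at least at 0.276 and Ciita at most at 0.0805 CPM per kilobase. Among the knockouts the ranges of both pairs overlapped. The chains of the A molecule were unequal in RNA, with the beta chain H2-Ab1 above the alpha chain H2-Aa per kilobase in both groups.

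Within every knockout library there were more reads of H2-Ab1 per read of H2-Aa, H2-Eb1 and Cd74 than in any control library. Ratios of reads within 1 library do not depend on scaling between libraries, and all 28 pairs of members were compared, after their levels had been seen. For each read of H2-Aa there were 31.0, 7.40, 10.4 and 13.3 reads of H2-Ab1 in knockout replicates 1 to 4, against 3.87, 6.67 and 4.13 in control replicates 1 to 3. The groups did not overlap, though knockout replicate 2 and control replicate 2 lay close together. The mean log2 ratio, with 0.5 reads added to each count, was 3.63 in the knockouts and 2.21 in the controls, a difference of 1.42 (exact permutation test, two-sided, p = 0.0571).

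For each read of H2-Eb1 there were 18.6, 37.0, 12.3 and 13.3 reads of H2-Ab1 in knockout replicates 1 to 4, against 3.05, 6.32 and 6.20 in control replicates 1 to 3. Every knockout stood at least at 12.3, and no control above 6.32. The difference in mean log2 ratio was 1.78 (exact permutation test, two-sided, p = 0.0286, the smallest it can give). For each read of Cd74 there were 10.3, 3.52, 2.65 and 2.74 reads of H2-Ab1 in the knockouts and 1.76, 1.76 and 1.44 in the controls, also without overlap (difference 1.27, exact permutation p = 0.0571). The 28 pairs reuse the same few members, so they are not separate results. The share of pairs without overlap was not computed for ratios of other genes. In 6 of the 28 pairs the groups did not overlap, and 3 of these 6 include H2-Ab1. In the other 3, H2-Aa or H2-Eb1 was low in the knockouts against H2-DMa or H2-DMb1. H2-Ab1 went the other way against H2-DMa, H2-DMb1 and H2-DMb2 (differences in mean log2 ratio 0.67, 0.96 and 1.54), with overlapping groups. For each read of H2-DMb1 there were 0.300, 0.345, 0.342 and 0.368 reads of H2-Aa in knockout replicates 1 to 4, against 0.750, 0.383 and 0.395 in control replicates 1 to 3 (difference in mean log2 ratio -0.47, exact permutation p = 0.0286). The ratios of H2-Aa and H2-Eb1 to H2-DMa differed by -0.76 and -1.12 (exact permutation p = 0.0571 and 0.0857). None of the 28 passed an adjustment over the pairs (Benjamini-Hochberg adjusted p, from the exact permutation tests, of 0.400 for H2-Eb1 to H2-DMa and 0.320 for the other 5). Knockout replicate 1, with 3 reads of H2-Aa and 9 of Cd74, gave the highest H2-Aa and Cd74 ratios. Without it the difference against H2-Aa was 1.05 and that against Cd74 0.83.

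**Figure D3:**
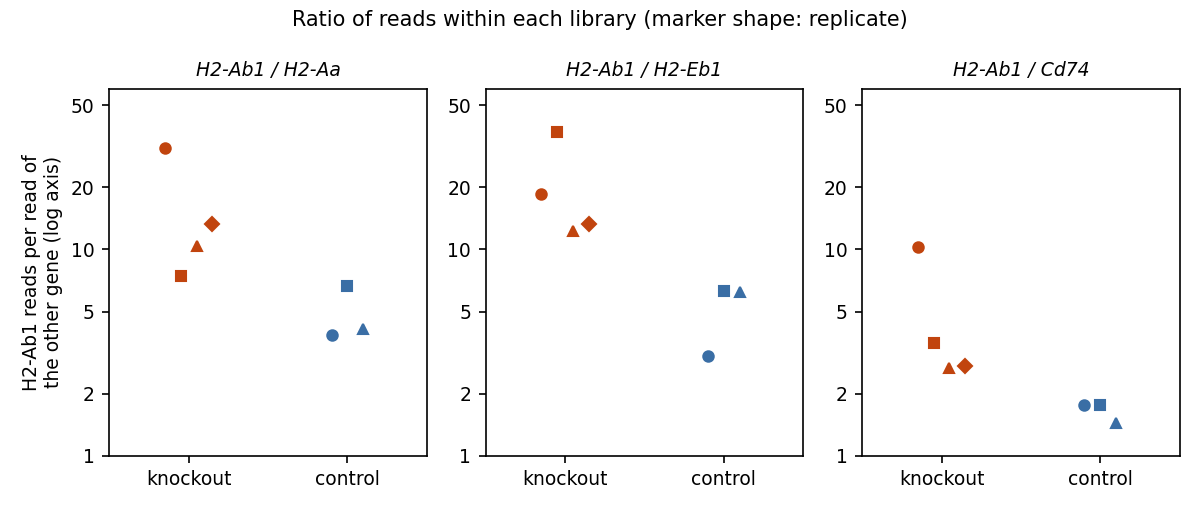
Reads of H2-Ab1 per read of H2-Aa, H2-Eb1 and Cd74 (log axis) in each of 4 knockout libraries (red, left in each panel) and 3 control libraries (blue, right), with the marker shape giving the replicate. In all 3 panels the knockouts lie above the controls without overlap, most closely for H2-Aa, where 7.40 in knockout replicate 2 stands next to 6.67 in control replicate 2.

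Single libraries stood out across the members within both groups. Control replicate 2 was the highest control for 7 of the 8 members, all but H2-Eb1. Knockout replicate 3 was the highest knockout for 7 of the 8, all but Ciita, and knockout replicate 1 the lowest for 5 of them (H2-Aa, H2-DMa, H2-DMb1, H2-DMb2 and Cd74). The summed level of the 8 members was 9.99, 13.6, 19.5 and 13.3 CPM in knockout replicates 1 to 4 and 12.9, 21.5 and 13.3 CPM in control replicates 1 to 3, so knockout replicate 1 lay below every control and the other knockouts within the control range. The gene outside the set whose profile over the 7 libraries was nearest to the mean of H2-Aa, H2-Ab1, H2-Eb1 and Cd74 was Filip1l, with a root mean square difference of 0.14 in log2 CPM after centring, among 11971 genes compared. Next came C3ar1, the receptor for complement fragment C3a (0.15), Mmp9, a matrix protease of myeloid cells (0.16), Gpr65, an acid-sensing receptor of leukocytes (0.16), and Gna14, a G protein alpha subunit (0.18). The members in that mean lay at 0.34 (H2-Aa), 0.34 (Cd74), 0.45 (H2-Eb1) and 0.58 (H2-Ab1). The 5 other genes were picked as the closest of 11971, so their smaller distances follow from that choice and are not a result. None of the 5 genes passed the edgeR test between groups (adjusted p from 0.571 to 0.723).

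**Figure D4:**
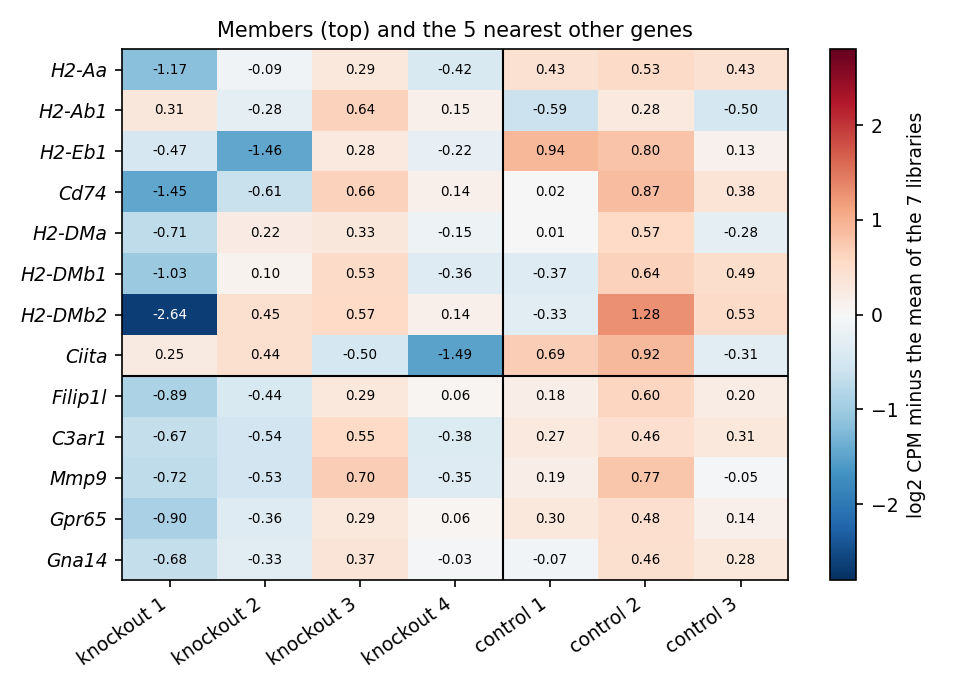
Log2 CPM of each gene minus its mean over the 7 libraries, for the 8 members (above the line) and the 5 nearest other genes (below it), with knockouts left of the vertical line and controls right of it. Knockout replicate 1 is low and control replicate 2 high in most rows, while H2-Ab1 stands at 0.31 in knockout replicate 1 and at -0.59 and -0.50 in control replicates 1 and 3.

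The rest of the class II machinery held no gene that passed in edgeR. Among 15 further chains and peptide-handling genes 14 were found and 12 passed the filter; 0 rose or fell in edgeR, 3 were lower at an unadjusted p under 0.05, DESeq2 called 1 lower, and the median log2 fold change was -0.14. Legumain, encoded by Lgmn, an endosomal protease, had 9.39, 10.6, 14.7 and 18.3 CPM in knockout replicates 1 to 4, against 32.0, 18.9 and 24.1 CPM in control replicates 1 to 3. Its groups did not overlap (log2 fold change -0.92, SE 0.25, edgeR adjusted p = 0.185), and it was the gene that DESeq2 called (DESeq2 adjusted p = 0.0167). Ctss, the cathepsin that trims the invariant chain in many presenting cells, averaged 5.52 ± 2.91 CPM in the knockouts and 11.1 ± 1.7 CPM in the controls. The Ctss groups did not overlap either (log2 fold change -1.0, edgeR adjusted p = 0.364, DESeq2 adjusted p = 0.154). Cd86, a costimulatory ligand, averaged 2.14 ± 1.2 and 4.64 ± 1.75 CPM in knockouts and controls (edgeR adjusted p = 0.432). H2-Oa and H2-Ob, the chains of the H2-DM inhibitor H2-O, reached at most 1.89 and 1.28 CPM in any library, and H2-Eb2 at most 0.092 CPM.

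The promoter-binding partners of Ciita were well measured in both groups. Of 13 genes for the RFX, NF-Y and CREB factors and their cofactors, all 13 passed the filter, 0 rose or fell in edgeR (1 higher and 0 lower unadjusted, 0 by DESeq2) and the median log2 fold change was -0.06. Rfx5, the RFX subunit that binds the X box, averaged 19.4 ± 3.8 CPM in the knockouts and 23.3 ± 2.5 CPM in the controls, and Nfya, a subunit of NF-Y, 118.9 ± 8.0 and 129.5 ± 4.7 CPM (SD, n = 4 and 3; edgeR adjusted p = 0.617 and 0.613). Nfyc, another NF-Y subunit, averaged 74.3 ± 6.3 and 64.1 ± 3.4 CPM (edgeR adjusted p = 0.418).

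Among 19 genes of interferon gamma signalling and other known inputs to Ciita, 17 passed the filter, 1 fell and 0 rose in edgeR. All 17 had a log2 fold change below 0 and the median was -0.42. At an unadjusted p under 0.05, 6 were lower, and DESeq2 called 4 of them lower. The gene that fell was Ifngr1, the ligand-binding chain of the interferon gamma receptor, with 59.1 ± 8.3 CPM in the knockouts and 121 ± 10 CPM in the controls (log2 fold change -1.03, SE 0.11, edgeR adjusted p = 0.0055). Gbp3, Irgm1 and Igtp, GTPases induced by interferon, averaged 1.34 and 3.49, 19 and 27.8, and 7.73 and 12.2 CPM in knockouts and controls (edgeR adjusted p = 0.080, 0.179 and 0.179). Class I presentation, the route of cytosolic peptides, held 0 changed genes of 19 tested (1 lower and 0 higher unadjusted in edgeR, 0 by DESeq2), with a median of -0.07. B2m, the light chain of class I molecules, averaged 156 ± 11 and 176 ± 10 CPM, and H2-K1, a class I heavy chain, 135 ± 8 and 121 ± 9 CPM (edgeR adjusted p = 0.493 and 0.505).

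Markers of cells known to use class II were compared for the same libraries. The 13 dendritic cell markers summed to 107 to 137 CPM in the knockouts and 142 to 177 CPM in the controls, with control replicate 2 highest, as for the members. Tcf4, Zbtb46, Bst2, Irf8 and Flt3 made up most of this sum (36.8, 30.4, 18.7, 10.7 and 8.47 CPM in knockout replicate 1). Flt3 is also on the list of progenitor genes, so the sum is not a level of dendritic cells alone. No other marker among the 13 passed 4.22 CPM in any library. Of these 13, 7 passed the filter, and 0 rose or fell in edgeR (0 unadjusted, 0 by DESeq2); their median log2 fold change was -0.22. Irf8, a transcription factor of dendritic cells and monocytes, averaged 22.0 ± 8.3 CPM in the knockouts and 33.2 ± 10.6 CPM in the controls (edgeR adjusted p = 0.562). Clec9a, a receptor of cross-presenting dendritic cells, had 0.900 to 3.27 CPM in the knockouts and 1.38 to 4.22 CPM in the controls, and Itgax, the CD11c gene, 0.382 to 1.61 and 0.460 to 1.41 CPM, levels like those of the members. Siglech and Xcr1, which mark plasmacytoid and cross-presenting dendritic cells, stood at most at 0.189 and 0.292 CPM. Of 12 B lineage markers that were found, only Rag1 and Cd79b passed the filter, and Ms4a1 and Pax5 stood at most at 0.0461 and 0.166 CPM. The sum over all 12 markers was 5.24, 9.30, 24.7 and 8.58 CPM in knockout replicates 1 to 4 and 7.47, 13 and 8.78 CPM in control replicates 1 to 3, of which Rag1, which developing T cells also express, made up 16.1 CPM in knockout replicate 3.

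Of the 16 macrophage markers, 14 passed the filter, all 14 had a log2 fold change below 0 and the median was -0.85. None passed in edgeR (10 lower unadjusted), and DESeq2 called 7 lower. Their sum was 176 to 278 CPM in the knockouts and 347 to 504 CPM in the controls, so the groups did not overlap. Control replicate 2 was the lowest control there, while it was the highest for most members. Of 10 monocyte markers, F13a1 fell in edgeR (7.82 ± 2.95 CPM in the knockouts and 89.3 ± 24.4 CPM in the controls, adjusted p = 0.0017), 6 were lower unadjusted and DESeq2 called 3. Of these 10, 9 had a log2 fold change below 0, and the median was -0.88. Their sum was 303 to 679 CPM in the knockouts and 431 to 616 CPM in the controls, of which Fn1, also a hepatocyte product, made up 190 to 635 CPM in the knockouts and 201 to 379 CPM in the controls. Without Fn1, a sum added after the values were seen, the other 9 markers came to 44.8, 78.0, 113 and 77.4 CPM in knockout replicates 1 to 4, against 176, 313 and 237 CPM in control replicates 1 to 3. These groups did not overlap, whereas those of 7 of the 8 members did. Control replicate 2 was highest and knockout replicate 1 lowest, as for most members. With Fn1 kept, knockout replicate 1 was instead the highest library, at 679 CPM. The 11 T and innate lymphoid markers summed to 11, 12.8, 63.3 and 16.6 CPM in knockout replicates 1 to 4 and 7.74, 11 and 9.61 CPM in control replicates 1 to 3, and Cd3e stood at 3.46 CPM in knockout replicate 3 and at 0 in the other 6 libraries. Without knockout replicate 3 the log2 fold change was -1.12 for H2-Aa and -1.59 for H2-Eb1 (edgeR adjusted p = 0.330 and 0.268). Among these lymphoid markers 8 passed the filter, 0 rose or fell in edgeR (3 higher unadjusted), and DESeq2 called 1 higher. Of 11 progenitor genes, 8 liver endothelial and 8 hepatocyte markers, all tested, 0 rose or fell in edgeR, with median log2 fold changes of -0.01, -0.25 and 0.21. Unadjusted, 3 progenitor genes (Kit lower and 2 higher), 2 endothelial markers (both lower) and 0 hepatocyte markers had p under 0.05. DESeq2 called 1 progenitor gene (Kit), 1 endothelial marker and 0 hepatocyte markers, all lower. The hepatocyte markers summed to 13022 to 23045 CPM in the knockouts and 10172 to 17954 CPM in the controls. The part of these cell types in the levels of the members was not tested.

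In the authors' deposited table, which holds their DESeq2 comparison of the same libraries, none of the 8 members had an adjusted p under 0.05. The log2 fold changes listed there were 0.47 for H2-Ab1, -0.84 for H2-Aa and -1.21 for H2-Eb1, with adjusted p-values of 0.734, 0.758 and 0.593. For Ciita the authors' deposited table lists -0.85 with an adjusted p of 0.862.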

How the data were processed

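Each gene was measured by polyA RNA sequencing in 7 libraries. Per the labels' protocols, RNA was taken on columns from lineage-depleted cells and libraries were made with a stranded mRNA kit. Raw counts of reads stand in the deposited table, 1 row per symbol. Per the submitters' processing notes, the authors used HISAT2 on mm10, featureCounts and DESeq2. For these tools no version, annotation, strand setting or treatment of multi-mapped reads was named. The authors' deposited comparison table holds a signal (counts divided by 1 size factor per library), log2 fold changes and their standard errors, a test score, p-values and adjusted p-values, per the file headers.

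Total counts ran from 18748885 to 23571878 per library. edgeR 4.0.16 in R 4.3.3 was run with filterByExpr, which left 14679 of 35976 symbols, TMM scaling and the quasi-likelihood F test, with group as the only term. Genes with an adjusted p (Benjamini-Hochberg, all tested genes) under 0.05 count as changed. Levels are CPM from TMM-scaled totals, with 2 as the prior count on the log2 scale. The fit was tested on simulated data. Intervals of fold changes are 95% t intervals from the fit. Intervals of single counts are exact Poisson 95% intervals and cover counting error only. Alternatives were other tests (DESeq2 1.42.0 and limma-voom 3.58.1), robust dispersion, scaling by size factors or by totals, tests with the filter left off or set to a mean of at least 1 CPM, a replicate block and leaving out each library. The other scalings for levels, the ratios of members with their alternatives and the search for both motifs in 1 window were chosen after the data were seen.

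The 8 members, the gene lists and the tests were chosen with earlier results of these data known. Named besides the members are Brd9, the genes of smallest p in each list (4 at most), and the 5 genes of at least 1 CPM whose profile was nearest to the class II chains and Cd74, without pseudogenes or names of clones and predictions. Others that are named were chosen after their values were seen. Of the listed symbols, March1 and March8 stood under older names, H2-Ea was found as H2-Ea-ps, and H2-Pa, Ighm and Ly76 were not analysed here. Exon lengths and overlaps are from GENCODE M21, and coordinates and promoters from RefSeq (GRCm38.p6, the assembly that mm10 names). Alignments used Biopython 1.88.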

Additional observations from a re-analysis of the deposited data

Results flagged for a closer look

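Among 78 sets of 4 knockout values (single genes and summed marker lists), 9 held a library far from the other 3 by Dixon's criterion, which chance alone meets in about 1 in 20 sets; none of the 9 was a class II member. In knockout replicate 3 this was so for Rag1 (16.1 CPM, against 0.328 to 0.975 in the other knockouts), Cd3g (18.2 CPM, against 0.437 to 1.02), Thy1 (13 CPM, against 0.780 to 1.04), Tcf7 (17.2 CPM, against 3.84 to 5.84), the summed T and innate lymphoid markers (63.3 CPM, against 11 to 16.6), C3ar1 (2.04 CPM, against 0.819 to 1.02) and Erap1 (47.5 CPM, against 53.8 to 54.7). The others were Gata2 in knockout replicate 1 (68.2 CPM, against 92.4 to 96.0) and Zbtb46 in knockout replicate 2 (34.5 CPM, against 30.3 to 31.0).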

How the results depend on the processing

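The number of members changed stayed at 0 under all 15 alternatives. The log2 fold changes of H2-Aa and H2-Eb1 (not tested at a minimum mean of 1 CPM), H2-Ab1, H2-DMb1, H2-DMb2, Cd74 and Brd9 kept their sign and their side of the threshold under every alternative run. That of H2-DMa was -0.34 to 0.10 with single libraries left out, and above 0 only without control replicate 2; the cause was not tested. Over all alternatives H2-Ab1 ranged from 0.30 to 0.80, H2-Aa from -1.12 to -0.59 and H2-Eb1 from -1.59 to -0.88. Of all tested genes 82 changed, against 228 without the filter on low counts and 382 by DESeq2, and leaving out single libraries gave 20 to 120; the cause was not tested. With the replicate block it was 121 and 0 members changed (median -0.83), and knockout replicate 4 took a term of its own. Same-numbered libraries correlated at 0.17, -0.02 and -0.01. With no such values for libraries of unlike number, this cannot settle whether the numbers pair them. The ratio of H2-Ab1 to H2-Aa, H2-Eb1 and Cd74 kept its sign without any single library. The 8 members held between 1 and 179 reads per library, and for H2-DMa the counting intervals of control replicates 2 and 3 (6.36 to 8.58 and 3.29 to 5.04 CPM) did not overlap.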
